A study of Bos taurus with 18 samples.

Results

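Interleukin 6 (IL6), colony stimulating factor 3 (CSF3) and interleukin 18 receptor 1 (IL18R1) were read in every library of a bovine endometrium-on-a-chip. They were picked by name, as 3 of the 36075 genes in the deposited table, and their Ensembl identifiers (ENSBTAG00000014921, ENSBTAG00000021462 and ENSBTAG00000001034) came from the gene lists published with the study. Those lists hold genes that the study called with rbCAPG, IL6 and CSF3 in both cell types and IL18R1 in epithelial cells, so the rbCAPG comparisons below are not independent evidence of a change in these genes. The rbPDI comparisons use the same VC libraries and are not independent of that choice either. All 3 genes passed the filter on low counts. CSF3 passed it only through its protein libraries, as each VC library held 4 counts or fewer. Its tests against VC are therefore not independent of the filter.

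Primary epithelial cells of the bovine endometrium (bEECs) grew under flow in the lower chamber of the device, and stromal cells (bESCs) grew in its upper, static chamber across a porous membrane. Each cell type was sequenced after 24 h with PBS as the vehicle control (VC) or with 1 of the recombinant bovine proteins CAPG (rbCAPG) and PDI (rbPDI) at 1 µg/mL, giving 6 groups with n = 3 libraries each and 18 in all. CAPG (an actin-capping protein) and PDI (protein disulfide isomerase) are proteins that the conceptus releases, and the study asked how the endometrium responds to them. The medium with the protein ran past the bEECs only. Whether the protein itself crossed the membrane to the bESCs was not measured here. Cells came from 3 abattoir tracts in the late-luteal stage, 1 animal for each replicate number, and a device paired both cell types of the same animal. No immune or vascular cells were seeded.

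IL6 is a secreted cytokine that signals through its receptor and gp130 to JAK kinases and STAT3, and it belongs to the early NF-kB response of many cells. CSF3, or G-CSF, is the secreted factor that drives the production and release of neutrophils and is made by epithelial cells, fibroblasts and endothelial cells when they meet inflammatory signals. IL18R1 is the chain of the interleukin 18 receptor that binds the ligand, and with its partner chain it signals through MYD88 to NF-kB. In the endometrium around implantation, cytokines of these families are part of the exchange between conceptus and uterus.

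Total counts were 10072851 to 44253149 per library. Levels are given as CPM, the counts scaled to a common library size by TMM normalization, and are compared only within a gene. A gene was called where edgeR's quasi-likelihood test gave an adjusted p under 0.05 over the 17931 genes tested and a log2 fold change beyond 1. The median log2 fold change over all genes tested lay between -0.02 and 0.03 in the 11 comparisons. Of the marker genes that could be read, the summed level of MUC1, OCLN and RBM47 (epithelial) was 415 to 992 CPM in the bEEC libraries and 0.536 to 4.05 CPM in the bESC libraries. The summed level of COL6A1, HAND2, ZEB1 and VCAN (stromal) was 175 to 346 CPM in the bESC libraries and 6.13 to 44.2 CPM in the bEEC libraries. All 7 markers were called between the cell types with VC, each in the direction of its label, beside 38.5% of all genes tested. Every marker read here carries a symbol through the study's rbCAPG lists, so its difference between protein and VC libraries is not independent of that choice.

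IL6 was present in both cell types with VC, and its mean level in both was several times higher with either protein. In the bEECs, IL6 stood at 134, 179 and 299 CPM with VC in replicates 1, 2 and 3. With rbCAPG it stood at 1569.8, 894 and 1523 CPM, and with rbPDI at 3463, 988 and 1303 CPM. Each protein library was above each VC library, and replicate 1 with rbPDI was far above the other two. The group means were 204 ± 85.3 CPM with VC, 1329 ± 377 CPM with rbCAPG and 1918 ± 1347 CPM with rbPDI (SD, n = 3).

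With rbPDI, IL6 rose in the bEECs by a log2 fold change of 3.23 (SE 0.67, 9.39-fold, adjusted p = 0.0268 by edgeR). With rbCAPG the log2 fold change was 2.70 (SE 0.65, 6.51-fold), which missed the threshold at an adjusted p of 0.0956. Within the animals the IL6 level with rbCAPG was 11.7, 5.0 and 5.09 times the VC level in replicates 1, 2 and 3. With rbPDI the corresponding values were 25.8, 5.52 and 4.35. With the animal as a block in edgeR, IL6 was called with rbCAPG (adjusted p = 0.0464) as well as with rbPDI (adjusted p = 0.0200). Of all genes tested in the bEECs, 0.513% were called with rbCAPG and 0.809% with rbPDI. Both comparisons use the same VC libraries. Without replicate 1 of rbPDI the log2 fold change fell to 2.49 (adjusted p = 0.102), and without VC replicate 1, 2 or 3 the adjusted p was 0.155, 0.117 or 0.0762.

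In the bESCs, IL6 stood at 183, 129 and 19.0 CPM with VC. It stood at 1583, 1106 and 1762 CPM with rbCAPG, and at 1339, 2595 and 2076 CPM with rbPDI. The groups did not overlap, and VC replicate 3 was the lowest of the 18 libraries. The group means were 110.3 ± 83.5 CPM with VC, 1484 ± 339 CPM with rbCAPG and 2004 ± 631 CPM with rbPDI (SD, n = 3).

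IL6 rose in the bESCs by a log2 fold change of 3.75 with rbCAPG (SE 0.68, 13.5-fold, adjusted p = 0.0482 by edgeR) and of 4.18 with rbPDI (SE 0.70, 18.2-fold, adjusted p = 0.0164). With the animal as a block the adjusted p was 0.0221 and 0.0074. Both calls were lost in a fit to the bESC libraries alone (adjusted p = 0.24 and 0.113), and the rbCAPG call with DESeq2's size factors (adjusted p = 0.0524). Within the animals the level with rbCAPG was 8.67, 8.55 and 92.8 times that with VC. With rbPDI it was 7.33, 20.1 and 109 times. The value for replicate 3 rests on its low VC library, and without that library the log2 fold changes were 3.26 (adjusted p = 0.0949) and 3.68 (adjusted p = 0.0443). In the bESCs, 0.0948% of all genes tested were called with rbCAPG and 0.178% with rbPDI. The rbCAPG call was lost when any one of the 6 libraries compared was left out (adjusted p 0.0808 to 0.11), and the rbPDI call without VC replicate 1 or 2 or rbPDI replicate 2 or 3 (adjusted p 0.0594, 0.0524, 0.0514 and 0.0519). Fewer cells of a type and less RNA per cell cannot be told apart in such bulk samples.

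The order of the IL6 group means was bESCs with rbPDI, bEECs with rbPDI, bESCs with rbCAPG, bEECs with rbCAPG, bEECs with VC and bESCs with VC. The first 4 groups overlapped one another, as did both VC groups, and each protein group lay above both VC groups. The cell types did not differ in IL6 beyond their spread. The log2 difference of bEECs from bESCs was 0.89 with VC (95% interval -0.41 to 2.19), -0.16 with rbCAPG (-1.45 to 1.13) and -0.06 with rbPDI (-1.36 to 1.23), at adjusted p of 0.246, 0.85 and 0.942 by edgeR. The share of all genes called between the cell types was 38.5% with VC, 38.9% with rbCAPG and 37.3% with rbPDI.

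**Figure D1:**
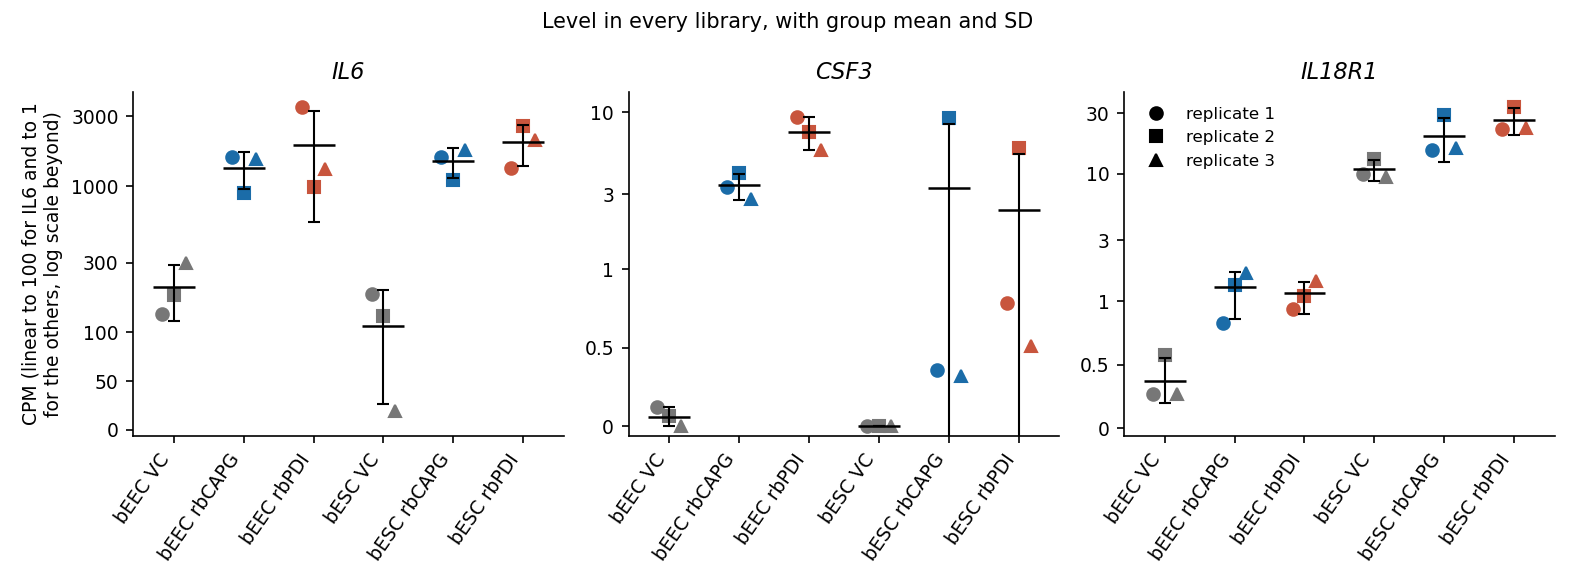
Level of IL6, CSF3 and IL18R1 in CPM (y axis, linear up to 100 for IL6 and up to 1 for the others, log scale beyond) in each of the 18 libraries, by group (x axis). Symbols mark the replicate number, horizontal lines the group mean and bars the SD, with SD bars that reach below 0 cut there. IL6 stood at 894 CPM or more in the 12 protein libraries and at 299 CPM or less in the 6 VC libraries, CSF3 in the bESCs was highest in replicate 2 with either protein, and IL18R1 was higher in each bESC library than in any bEEC library.

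CSF3 was at or near the floor with VC and was detected in all 12 libraries with a protein. In the bEECs, the deposited counts with VC were 4, 1.5 and 0 in replicates 1, 2 and 3. The counts were 81, 137 and 94 with rbCAPG, and 217, 218 and 213.17 with rbPDI. In CPM these were 0.121, 0.064 and 0 with VC, 3.35, 4.08 and 2.80 with rbCAPG, and 9.25, 7.44 and 5.72 with rbPDI. The 3 groups did not overlap, and the highest VC library held 4 counts.

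The fitted log2 fold change of CSF3 in the bEECs was 5.72 with rbCAPG (SE 1.48, 95% interval 2.56 to 8.87) and 6.84 with rbPDI (SE 1.5, 3.62 to 10.1). Neither passed the threshold in edgeR, at adjusted p of 0.146 and 0.0505. Both passed with the animal as a block in edgeR (adjusted p = 0.000106 and 1.79e-05) and in DESeq2 (adjusted p = 0.00444 and 0.000115). Neither passed in any edgeR fit that left out 1 library. There the adjusted p ran from 0.228 to 0.52 with rbCAPG and from 0.0907 to 0.248 with rbPDI. With so few counts in the VC libraries, the size of these fold changes is poorly fixed. The intervals also carry the spread of the bESC libraries, which were fitted together with the bEECs. In edgeR on the bEEC libraries alone the log2 fold changes were 5.68 with rbCAPG (adjusted p = 0.000538) and 6.85 with rbPDI (adjusted p = 0.000126). The cause of this shift was not tested.

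In the bESCs, the deposited CSF3 counts with VC were 0, 0.25 and 0, which all round to 0. The counts were 13, 495.75 and 14 with rbCAPG and 9, 273 and 22 with rbPDI, in replicates 1, 2 and 3. In CPM these were 0.355, 9.20 and 0.323 with rbCAPG and 0.783, 5.90 and 0.509 with rbPDI. Replicate 2, a single animal, stood far above the other two with both proteins, while the bEECs of that animal did not stand apart. Its rbCAPG library was the deepest of the 18 and the rbPDI library of replicate 1 the shallowest. The bESC group means were therefore 3.29 ± 5.12 CPM with rbCAPG and 2.40 ± 3.04 CPM with rbPDI (SD, n = 3), each SD exceeding its mean.

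Against a floor of 3 counts in each VC library (0.0861 CPM on average), mean CSF3 was at least 38.2-fold higher with rbCAPG and at least 27.8-fold higher with rbPDI. Taken one library at a time, the level with rbCAPG was 4.13, 107 and 3.75 times that average floor in replicates 1, 2 and 3. With rbPDI it was 9.09, 68.5 and 5.91 times the average floor. These values do not use the floor of the same animal, which was higher for the shallower VC replicate 1 (20488416 counts). The edgeR test did not call either change, at adjusted p of 0.185 and 0.123. With the animal as a block both were called (adjusted p = 0.00129 and 0.000578), and so they were in DESeq2 (adjusted p = 5.15e-05 and 0.000115). In edgeR on the bESC libraries alone neither was called, at an adjusted p of 0.767 with rbPDI and a higher one with rbCAPG. The adjusted p of the rbPDI change ran from 0.144 to 0.52 over the fits that each left out 1 library, and that of the rbCAPG change from 0.0808 to 0.812.

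The epithelial markers, 3 of 11 listed, were also read in the bESC libraries. Their summed level in the bESCs was 0.153% to 0.299% of the bEEC mean with rbCAPG and 0.142% to 0.439% with rbPDI. CSF3 in the bESCs was 9.47% to 270% of the bEEC mean with rbCAPG and 6.81% to 79.0% with rbPDI. Each CSF3 share was above each share of the summed markers in the same treatment. MUC1 made up most of that sum in the bEECs (mean 698 CPM with rbCAPG and 711 CPM with rbPDI). OCLN alone stood at 0.992 to 2.05 CPM in the bESCs with rbCAPG, beside a bEEC mean of 103 CPM. With rbPDI OCLN stood at 0.261 to 3.24 CPM in the bESCs, beside a bEEC mean of 105 CPM. In the bESCs with rbPDI, OCLN was called (log2 fold change 2.82, adjusted p = 0.0402 by edgeR), while MUC1 (2.01, adjusted p = 0.0713) and RBM47 (-2.97, adjusted p = 0.198) were not. The part of bEEC RNA in the bESC values of CSF3 was not tested.

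The order of the CSF3 group means was bEECs with rbPDI, bEECs with rbCAPG, bESCs with rbCAPG, bESCs with rbPDI, bEECs with VC and bESCs with VC. The log2 difference of bEECs from bESCs was 0.04 with rbCAPG (95% interval -2.21 to 2.29, adjusted p = 0.978 by edgeR) and 1.59 with rbPDI (-0.71 to 3.9, adjusted p = 0.241). Replicate 2 of the bESCs set these values. Without it the differences were 3.32 with rbCAPG (adjusted p = 0.0125) and 3.59 with rbPDI (adjusted p = 0.0389). In the fit with the animal as a block, which averages the animals on the log scale, they were 1.59 (adjusted p = 0.0034) and 2.59 (adjusted p = 0.000161). That block was set within each cell type and did not pair the cell types. Its p-values here therefore leave out the spread between animals. No fold is given between the VC groups, which held at most 4 counts.

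IL18R1 was a gene of the stromal cells in this device, at a low level in the bEECs. In the bESCs it stood at 10.04, 13.2 and 9.38 CPM with VC, at 15.3, 28.8 and 15.9 CPM with rbCAPG, and at 22.6, 33.7 and 22.9 CPM with rbPDI, in replicates 1, 2 and 3. In the bEECs it stood at 0.272, 0.576 and 0.269 CPM with VC, at 0.827, 1.34 and 1.67 CPM with rbCAPG, and at 0.937, 1.09 and 1.45 CPM with rbPDI. Each bESC library was above each bEEC library. Replicate 2 was the highest of the bESCs in all 3 treatments, as it was for CSF3 with the proteins.

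The log2 difference in IL18R1 of bEECs from bESCs was -4.86 with VC (SE 0.39, adjusted p = 7.12e-08 by edgeR), -3.95 with rbCAPG (SE 0.36, adjusted p = 2.77e-07) and -4.49 with rbPDI (SE 0.37, adjusted p = 1.01e-07). Within the animals the bESC level with VC was 36.9, 22.9 and 34.9 times the bEEC level. It was 18.5, 21.5 and 9.55 times with rbCAPG and 24.1, 30.8 and 15.8 times with rbPDI. The cell type difference was called in each alternative fit run.

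In the bEECs, IL18R1 rose with rbCAPG by a log2 fold change of 1.79 (SE 0.39, 3.46-fold, adjusted p = 0.0492 by edgeR). With rbPDI the log2 fold change was 1.65 (SE 0.39, 3.13-fold), at an adjusted p of 0.061 that missed the threshold. With the animal as a block the adjusted p was 0.00353 and 0.00486, so both were called. The counts behind these values were 9, 18 and 9 with VC, 20, 45 and 56 with rbCAPG and 22, 32 and 54 with rbPDI, and neither protein group overlapped VC. The rbCAPG call was lost in a fit to the bEEC libraries alone (adjusted p = 0.116) and without VC replicate 1 (adjusted p = 0.312) or 3 (0.29) or without rbCAPG replicate 2 (0.135) or 3 (0.268), and the rbPDI change was called without VC replicate 2 (0.0357).

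Mean levels of the stromal markers in the bEECs were also above VC with either protein. These 4 of 11 listed markers could be read because the rbCAPG lists hold them, which favours such a difference. The summed level of the 4 stromal markers in the bEECs was 6.13 to 13.5 CPM with VC, 15.2 to 44.2 CPM with rbCAPG and 10.4 to 30.8 CPM with rbPDI. None of the 4 was called, and their log2 fold changes in the bEECs ranged from 1.42 to 2.04 with rbCAPG and from 0.99 to 1.66 with rbPDI. As a share of the bESC mean with the same treatment, IL18R1 in the bEECs averaged 3.43% with VC, 6.39% with rbCAPG and 4.39% with rbPDI. The summed stromal markers averaged 4.83%, 10.2% and 9.70% in the same groups. The single markers differed, from 2.15% (HAND2) to 9.49% (COL6A1) with VC and from 4.35% (VCAN) to 21.1% (COL6A1) with rbCAPG. With rbPDI they ran from 4.20% (HAND2) to 22.4% (ZEB1). IL18R1 lay within each of these ranges, and VCAN averaged 2.26%, 4.35% and 4.42%. The part of stromal RNA in the bEEC values of IL18R1 was not tested.

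**Figure D2:**
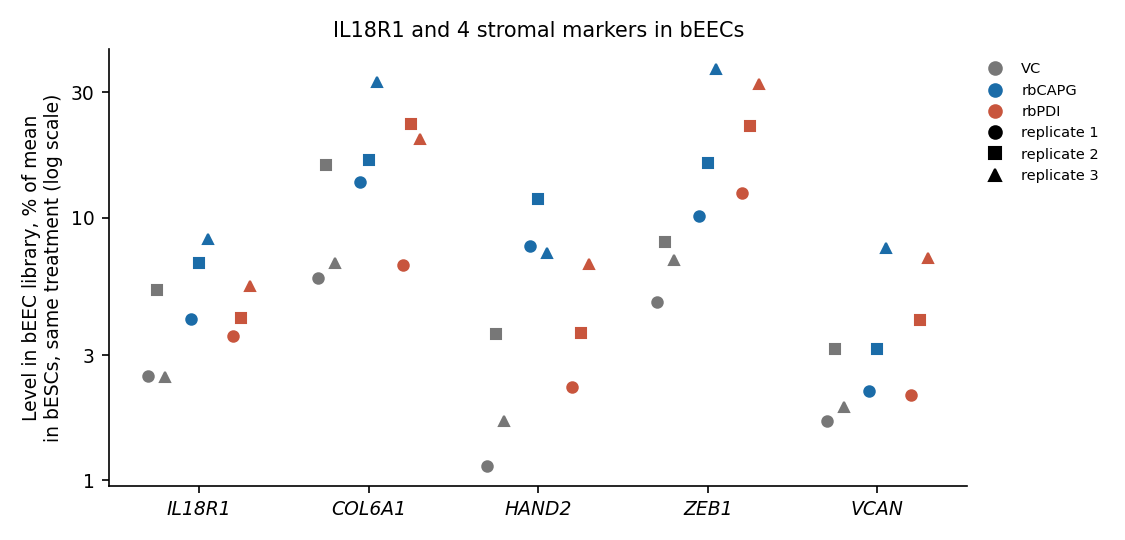
Level of IL18R1 and of the stromal markers COL6A1, HAND2, ZEB1 and VCAN in each bEEC library (y axis, percent of the mean in bESCs with the same treatment, log scale), with colours for treatments and symbols for replicates. IL18R1 lay between 2.48% and 8.33% of the bESC mean, within the span of the 4 markers, which ran from 1.14% for HAND2 to 36.8% for ZEB1.

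In the bESCs, IL18R1 was 1.84-fold the VC level with rbCAPG (log2 fold change 0.88, SE 0.32) and 2.43-fold with rbPDI (log2 fold change 1.28, SE 0.32). Neither passed the threshold in edgeR, at adjusted p of 1.00 and 0.166. The groups did not overlap in either comparison. Within the animals the ratio was 1.52, 2.19 and 1.70 with rbCAPG and 2.25, 2.56 and 2.44 with rbPDI. With the animal as a block the rbPDI change was called (adjusted p = 0.00599) and the rbCAPG change was not (adjusted p = 0.118). The epithelial markers in these libraries summed to 4.05 CPM or less.

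The order of the IL18R1 group means was bESCs with rbPDI, with rbCAPG and with VC (26.4 ± 6.33, 20.03 ± 7.64 and 10.9 ± 2.03 CPM), then bEECs with rbCAPG, with rbPDI and with VC (1.28 ± 0.424, 1.16 ± 0.263 and 0.372 ± 0.177 CPM; SD, n = 3). The protein groups of each cell type overlapped each other, and the other neighbours in this order did not overlap.

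**Figure D3:**
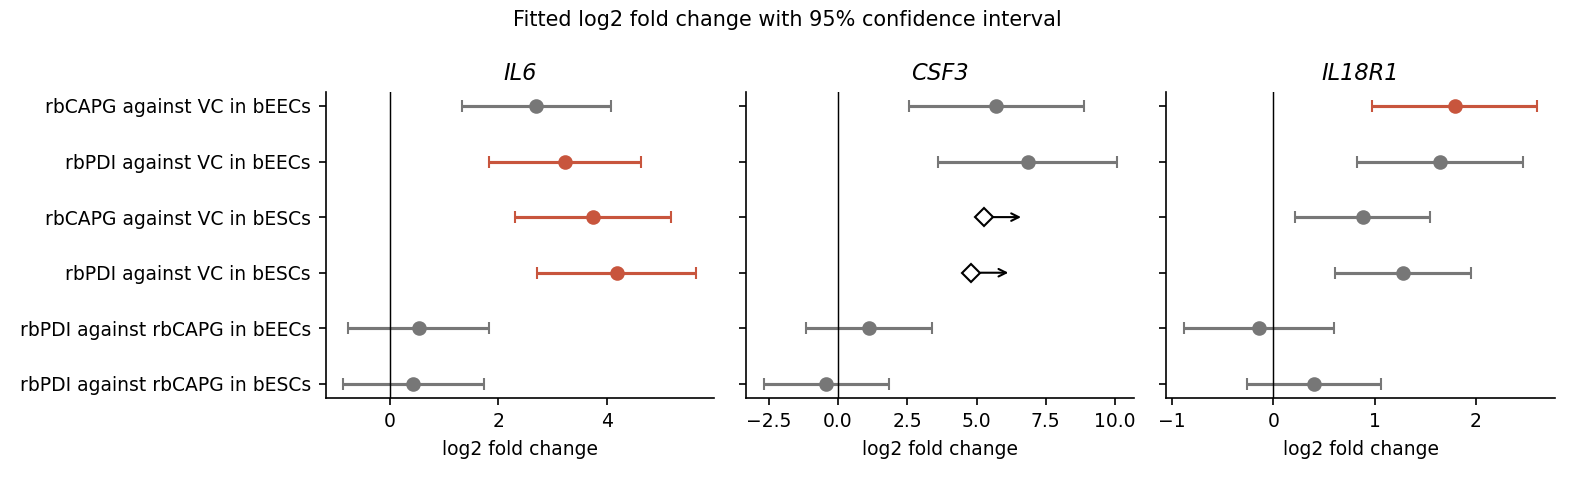
Fitted log2 fold change (x axis) of IL6, CSF3 and IL18R1 in 6 comparisons (y axis), with 95% confidence intervals from edgeR, red where the gene was called and grey where it was not. Open diamonds with arrows are lower bounds for CSF3 in the bESCs, whose VC libraries held 0.25 counts or fewer. The intervals of all 8 protein comparisons of IL6 and IL18R1 against VC lay above 0, and those of rbPDI against rbCAPG crossed 0.

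No difference between the proteins was called in any of the 3 genes. Compared at the same dose and time, rbPDI differed from rbCAPG in IL6 by a log2 fold change of 0.53 in bEECs (95% interval -0.77 to 1.83) and of 0.43 in bESCs (-0.86 to 1.73). For CSF3 the difference was 1.13 in bEECs (-1.14 to 3.40) and -0.42 in bESCs (-2.68 to 1.84). For IL18R1 it was -0.14 in bEECs (-0.88 to 0.60) and 0.40 in bESCs (-0.26 to 1.06). The adjusted p from edgeR was 1.00 in all 6, and 5 of the 6 intervals, all but that of IL18R1 in bEECs, reach beyond a log2 difference of 1. The share of genes called between the proteins was 0% in both cell types. In edgeR 103 genes in bEECs and 319 in bESCs had an unadjusted p under 0.05, and DESeq2 called 0 genes in both. CSF3 in the bEECs was the only one of the 6 cases in which the groups did not overlap, with each rbPDI library (5.72 CPM or more) above each rbCAPG library (4.08 CPM or less). An exact permutation test of 3 libraries against 3 cannot go below p = 0.1, also where groups do not overlap. The share of all genes without overlap was not computed. The CSF3 difference in the bESCs turned to 2.84 without replicate 2 of rbCAPG.

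Neither protein changed any of the 3 genes by a different factor in bEECs and bESCs that passed the threshold. For IL6 the log2 change in bEECs minus that in bESCs was -1.05 with rbCAPG (95% interval -2.88 to 0.79) and -0.95 with rbPDI (-2.79 to 0.88). For IL18R1 it was 0.91 (-0.14 to 1.95) and 0.37 (-0.67 to 1.40). The adjusted p was 1.00 for each by edgeR, and 0.0669% and 0.0948% of all genes tested were called for the rbCAPG and the rbPDI interaction. For CSF3, with 0.25 counts or fewer in the bESC VC libraries, the interaction was not called either, and its size is not given.

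Few other genes of these cytokine pathways could be read, because only genes in the study's rbCAPG lists carry a symbol. Of 14 genes of the IL-6 family and its signalling and of 8 colony stimulating factors and receptors, IL6 and CSF3 alone had an identifier, so the receptors of both ligands were not analysed here. Of 21 genes of the IL-1 and IL-18 family, IL37, IL1RN and IL1R2 had one besides IL18R1. None of the 3 was called with either protein in either cell type. IL1RN, the antagonist of the interleukin 1 receptor, was an epithelial gene at 38.6 ± 4.43 CPM in the bEECs with VC, 110.1 ± 25.7 CPM with rbCAPG and 137 ± 53.8 CPM with rbPDI (SD, n = 3), and at 1.15 CPM or less in the bESCs. Its log2 fold change in the bEECs was 1.51 with rbCAPG and 1.83 with rbPDI (adjusted p = 0.171 and 0.0563 by edgeR). IL1R2, a decoy receptor for interleukin 1, had log2 fold changes of 2.20 and 2.34 in the bEECs (adjusted p = 0.27 and 0.171). IL37 had counts that round to 0 in the bEECs with VC and at 0.483 CPM or less with the proteins there, and its bESC levels were 0.495 CPM or less with VC, 1.73 to 2.30 CPM with rbCAPG and 2.46 to 14.1 CPM with rbPDI, where 1 library stood far above the others (adjusted p = 0.783 and 0.082). IL23A, a subunit of interleukin 23 and the one gene of 7 other interleukins with an identifier, was called in the bEECs with rbPDI (log2 fold change 1.32, adjusted p = 0.0421) and not with rbCAPG (1.07, adjusted p = 0.159).

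Regulators of NF-kB and C/EBP, the factors known to act on the IL6 and CSF3 promoters, had higher mean levels with both proteins. Of 14 listed genes, 10 had an identifier, and those 10 are in the study's rbCAPG lists, so their rbCAPG counts are not independent evidence, nor are their rbPDI counts, which use the same VC libraries. In the bEECs 9 of the 10 were called higher with rbCAPG and the same number with rbPDI, and in the bESCs 6 of 10 with each protein. All 10 had a log2 fold change above 0 in each of these comparisons. Of all genes tested, 0.513% and 0.809% were called in the bEECs and 0.0948% and 0.178% in the bESCs, with rbCAPG and rbPDI. The median log2 fold change of the 10 was 2.18 and 2.27 in the bEECs and 1.74 and 1.75 in the bESCs, for rbCAPG and rbPDI, beside a median over all genes of 0.02, -0.01, -0.01 and 0.

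NFKBIA, which codes for the NF-kB inhibitor IkB-alpha and is itself an NF-kB target, rose in the bEECs by a log2 fold change of 3.30 with rbCAPG and 3.48 with rbPDI (adjusted p = 9.24e-06 and 3.93e-06 by edgeR). In the bESCs it rose by 1.75 and 1.81 (adjusted p = 0.0133 and 0.00889). TNFAIP3, the ubiquitin-editing inhibitor A20, rose by 2.26 and 2.33 in the bEECs (adjusted p = 0.008 and 0.00449) and by 2.61 and 2.57 in the bESCs (adjusted p = 0.0128 and 0.0109). ZC3H12A, whose product Regnase-1 degrades IL6 mRNA, rose by 2.72 and 2.87 in the bEECs (adjusted p = 0.000111 and 5.97e-05) and by 1.94 and 2.00 in the bESCs (adjusted p = 0.0122 and 0.00889). NFKBIZ, a nuclear cofactor for IL6 transcription, rose by 2.18 and 2.21 in the bEECs and by 1.72 and 1.58 in the bESCs.

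TNIP1 and BIRC3 were also called in all 4 comparisons. NFKB1, NFKB2 and the kinase MAP3K8 were called in the bEECs with both proteins and in the bESCs with neither. CEBPD was called in none of the 4, at log2 fold changes of 0.88 to 1.2. These 10 genes include inhibitors of the pathway (NFKBIA, TNFAIP3, TNIP1) as well as its factors.

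**Figure D4:**
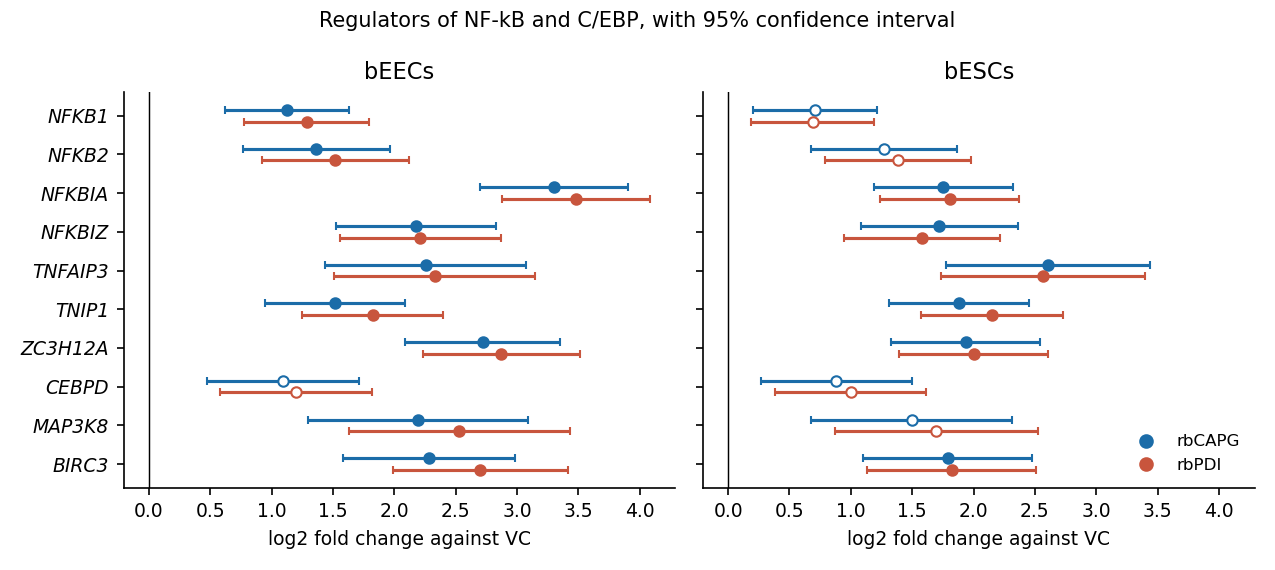
Log2 fold change against VC (x axis) of 10 regulators of NF-kB and C/EBP (y axis) in bEECs (left) and bESCs (right), for rbCAPG (blue) and rbPDI (red), with 95% confidence intervals from edgeR. Filled points passed the threshold and open points did not; all 40 estimates lay above 0.

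Leukocytes and endothelial cells can also make IL6 and CSF3, and few of their markers could be read, all of them from the rbCAPG lists, which favours a difference from VC. The leukocyte markers CD14 and AIF1 summed to 12.7 to 21.0 CPM in the bEECs with VC, 44.7 to 58.4 CPM with rbCAPG and 53.0 to 71.5 CPM with rbPDI. In the bESCs they summed to 4.35 to 18.3, 5.93 to 20.03 and 6.38 to 14.4 CPM. CD14, a co-receptor for lipopolysaccharide that epithelial cells can also express, was called in the bEECs with rbPDI (log2 fold change 2.35, adjusted p = 0.0421 by edgeR). In the bEECs AIF1 averaged 10.3 CPM with VC, 26.6 CPM with rbCAPG and 26.7 CPM with rbPDI. It was called there with neither protein (adjusted p = 0.178 and 0.13 by edgeR). In the bESCs AIF1 had counts that round to 0 with VC and stood at 0.082 CPM or less with the proteins. The endothelial markers TEK and SELP summed to 1.53 to 3.75 CPM in the bEECs with VC, 11.9 to 15.9 CPM with rbCAPG and 5.07 to 37.4 CPM with rbPDI. In the bESCs, where SELP made up nearly all of the sum, they reached 116 to 214, 316 to 646 and 82.2 to 518 CPM. TEK was called in the bEECs with rbPDI (log2 fold change 3.23, adjusted p = 0.0442), at 0.888 CPM or less. Its level there with VC was 0.0302 to 0.128 CPM, so the size of this change is poorly fixed. The part of such cells in the IL6 and CSF3 values was not tested.

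The genes most like each member across the 18 libraries were looked for by Pearson's r of log2 CPM, among the 189 other genes with a symbol that were tested. These values describe the data only, since the libraries share 3 animals, 2 cell types and the treatments. Every gene with a symbol also comes from the rbCAPG lists. IL6 was most like CCL5 (r = 0.909), BIRC3 (0.902), CCL20 (0.887), CCRL2 (0.841) and NFKBIA (0.832). CCL5 and CCL20 are chemokines. The r of these 5 genes with IL6 was 0.793 to 0.977 over the 9 bEEC libraries and 0.922 to 0.96 over the 9 bESC libraries. Among the genes with a symbol they ranked from 2 (BIRC3) to 97 (CCL20) of 189 within the bEECs. Within the bESCs they ranked from 5 (CCL5) to 13 (BIRC3) of 184.

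CSF3 was most like TNFAIP3 (r = 0.909), GSAP (0.905), CCL20 (0.888), BIRC3 (0.887) and NFKB1 (0.887). These stood at 0.859 to 0.97 within the bEECs and at 0.849 to 0.941 within the bESCs. They ranked from 10 (CCL20) to 92 (GSAP) of 189 within the bEECs and from 2 (GSAP) to 22 (NFKB1) of 184 within the bESCs. BIRC3 and CCL20 were thus in the lists of both IL6 and CSF3, and IL6 and CSF3 had an r of 0.767 with each other.

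IL18R1 was most like CLMP (r = 0.987), C1R (0.987), VCAN (0.986), C1S (0.982) and FYN (0.982). C1R and C1S are the proteases of the first complement component, and VCAN is among the stromal markers above. Over the bESC libraries alone these r fell to between 0.603 and 0.861, and over the bEEC libraries they were 0.891 to 0.929. IL18R1 and CSF3 had an r of -0.01 over all libraries, 0.856 within the bEECs and 0.943 within the bESCs. IL18R1 and IL6 stood at 0.158, 0.766 and 0.798 in the same sets.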

How the data were processed

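RNA from 18 libraries was amplified with a SMART-Seq kit and sequenced as paired-end reads. The authors trimmed reads with Trimmomatic (quality 20, minimum 30 bp), aligned them with STAR to the bovine assembly ARS-UCD1.3 and counted pairs with featureCounts on Ensembl release 113, dividing reads with several matches or several genes into fractions. Tool versions and a strand option are not given in the sources used here. The deposited values are therefore estimated counts, not normalized, and 23.3% of them were not whole, as were 11 of 18 values for IL6, 4 of 18 for CSF3 and 1 of 18 for IL18R1. Reads shared with related, overlapping or antisense genes cannot be separated.

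Counts were rounded to whole numbers. Genes were filtered with filterByExpr (17931 of 36075 kept), normalized by TMM and fitted with 6 group means to all 18 libraries in edgeR 4.0.16 under R 4.3.3 (12 residual degrees of freedom). The quasi-likelihood F-test had its p-values adjusted over all genes tested (Benjamini-Hochberg). Intervals and SE follow from the F statistic. Log2 CPM for correlations used a prior count of 2. A group with at most 3 counts in each library was set to a floor of 3 counts per library, between 6.78e-06% (deepest library) and 2.98e-05% (shallowest) of a total, which covers counting error only. With 3 libraries against 3 an exact permutation test cannot go below p = 0.1. This holds for all groups said not to overlap, and the share of all genes without overlap was not computed for any comparison. Groups came from the labels.

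Alternatives were DESeq2 1.42.0 (local fit), its size factors in edgeR, no filter (29859 genes), libraries of one cell type only, a block for the replicate number within cell type, and each library left out in turn. The replicate numbers pair libraries because each stands for 1 animal. Deviations from the group means correlated for every same-numbered pair within a cell type (0.311 to 0.624 in bEECs, 0.129 to 0.669 in bESCs). The scripts were tested on simulated data.

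The genes named are the 3 members, the 5 most like each by correlation, and every gene with an identifier in fixed lists of pathway genes and markers. Symbols came from 190 of the 245 identifiers in the study's rbCAPG lists. The members and lists were chosen with earlier results of these data known. Of the markers, 3 of 11 epithelial, 4 of 11 stromal, 2 of 7 leukocyte (CD14 and AIF1) and 2 of 5 endothelial (TEK and SELP) had an identifier, so the marker check is partial. The reference table is of another assembly, so no coordinates or sequences are given.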

Additional observations from a re-analysis of the deposited data

How the results depend on the processing

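Adjusted p-values of the 3 genes depended on the fit more than their direction did. DESeq2 called 7 changes against VC that edgeR did not: IL6 and CSF3 with rbCAPG in bEECs (adjusted p = 0.00124 and 0.00444), CSF3 and IL18R1 with rbPDI in bEECs (0.000115 and 0.0038), CSF3 with rbCAPG and rbPDI in bESCs (5.15e-05 and 0.000115) and IL18R1 with rbPDI in bESCs (0.0055). The replicate block, which follows the animals within each cell type, called the same 7 (0.0464, 0.000106, 1.79e-05, 0.00486, 0.00129, 0.000578 and 0.00599), and the CSF3 differences between cell types with VC, rbCAPG and rbPDI (0.00741, 0.0034 and 0.000161), the first of which rests on at most 4 counts. Between cell types that block does not pair the animals, and its p-values leave out the spread between them. The block turned CSF3 of rbPDI against rbCAPG in bESCs to 0.10 on the log2 scale (adjusted p = 1.00) and changed no other call of these genes. The block called 392 and 531 genes in bEECs with rbCAPG and rbPDI against 92 and 145 without it, and 86 and 189 against 17 and 32 in bESCs, and DESeq2 called 270, 381, 71 and 175. The interactions had 40 and 79 calls with the block and 47 and 85 in DESeq2, against 12 and 17.

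With no filter, IL6 and CSF3 with rbCAPG in bEECs (0.0294 and 0.0308), CSF3 and IL18R1 with rbPDI in bEECs (0.00422 and 0.0457) and CSF3 in bESCs (0.0148 and 0.0175) were called, and the CSF3 difference between cell types with rbCAPG turned sign at near 0 (1.00). Size factors from DESeq2 called CSF3 with rbPDI in bEECs (0.0482) and lost IL6 with rbCAPG in bESCs (0.0524). Libraries of one cell type called IL6 and CSF3 with rbCAPG (0.0469 and 0.000538) and CSF3 with rbPDI (0.000126) in bEECs, and lost IL18R1 with rbCAPG in bEECs (0.116) and IL6 in bESCs (0.24 and 0.113). The IL6 difference between cell types with rbPDI turned sign in DESeq2 and with its size factors (0.992 and 0.991). The cause of these shifts was not tested.

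Over fits without 1 library, adjusted p ran from 0.0263 to 0.312 for IL18R1 with rbCAPG in bEECs, 0.0244 to 0.155 for IL6 and 0.0357 to 0.291 for IL18R1 with rbPDI in bEECs, and 0.0808 to 0.11 and 0.021 to 0.0594 for IL6 in bESCs. Between cell types it ran from 0.0125 to 0.978 and 0.0389 to 0.473 for CSF3, and from 0.723 to 0.977 and 0.335 to 0.973 for IL6, with rbCAPG and rbPDI. It was 1.00 throughout for rbPDI against rbCAPG, where IL6 and IL18R1 in bEECs and CSF3 in bESCs turned sign in at least 1 fit. All 12 changes against VC kept their direction in all fits.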
